A study of Mus musculus with 2 samples.

Results

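A set of 10 apolipoprotein genes, most of them known as products of the liver, was followed on a pair of expression arrays of the whole mouse embryo at E14.5. They were Apoa1, Apoa2, Apoa4, Apob, Apoc1, Apoc2, Apoc3, Apoe, Apom and Apoh. Members were every probe set that the array's annotation pairs with 1 of these symbols, which gave 17 probe sets for 10 genes, among 34958 probe sets with 1 symbol for 18194 genes. Total RNA of wild type embryos, isolated with RNAzol and labelled with biotin, had been hybridised to 2 Affymetrix mouse genome arrays, called array 1 and array 2 here. Both arrays are of 1 condition, no treated or mutant group was compared, and neither the labels nor the methods state if separate embryos were used for the duplicates, or which of the strains NMRI and C57/BL6 they were. The spread between the arrays may therefore be technical.

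Apolipoproteins are the protein part of lipoproteins, the particles that carry cholesterol and triglycerides through the blood. Apob is the structural protein of the large triglyceride-rich particles and of LDL, Apoa1 and Apoa2 are the main proteins of HDL, and the small C proteins and Apoe move between particles and steer lipases and receptors. Hepatocytes are the chief source of most of them, the yolk sac endoderm and the intestinal epithelium secrete several as well, and Apoe is also made by macrophages and glia. In the embryo the fetal liver is at the same time the site where blood cells form.

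Of the 10 genes, 8 (Apoa1, Apoa2, Apom, Apob, Apoe, Apoc1, Apoc2 and Apoh) gave a signal above background on both arrays, whereas Apoa4 and Apoc3 did not. Over all genes of the array the share above background was 65.5%. Background was taken from 81 probe sets for olfactory, vomeronasal and bitter taste receptors, whose 95th percentile served as a bound: 27.9 on array 1 and 33.8 on array 2. A gene passed when at least 1 of its probe sets lay above the bound on each array. Of the 17 probe sets 12 passed on both arrays, 1 on array 1 only and 4 on neither array, against 55.6% of all probe sets with 1 symbol on both. Of the members, 5 had a single probe set, and 4 of these 5 passed, against 48.6% of all genes with a single probe set. Signals are linear and were scaled by the authors to the same trimmed mean on each array. Since probe sets differ in how strongly they respond, a higher signal of one gene than of another does not order their transcripts.

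**Figure D1:**
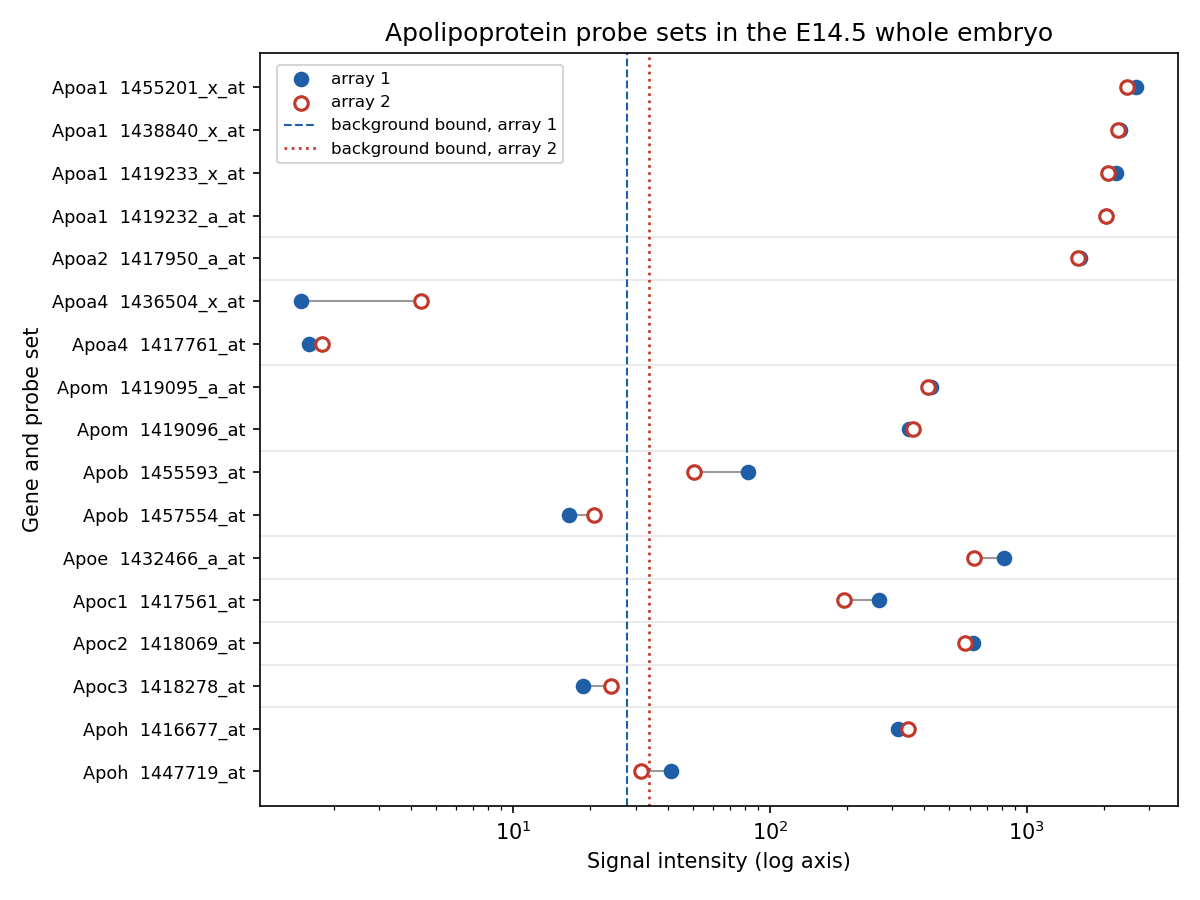
Signal intensity on a log axis for each of the 17 apolipoprotein probe sets on array 1 (filled) and array 2 (open), with the background bound of each array as a vertical line. The 4 probe sets of Apoa1 lie between 2034.6 and 2661.9, and both probe sets of Apoa4 lie at or under 4.4.

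Apoa4 and Apoc3, the members that did not pass, lie beside Apoa1, which passed. In the RefSeq gene order Apoa1, Apoc3, Apoa4 and Apoa5 follow each other on chromosome 9, and 1 of these 4 genes, Apoa1, was above background. On chromosome 7 the order is Apoc2, Apoc4, Apoc1 and Apoe, and 4 of 4 were above background. Apoa5 and Apoc4 are not among the 10 members. Apoa2, Apob, Apoh and Apom lie apart from these groups, on chromosomes 1, 12, 11 and 17.

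Promoter sequences are shown for Apoa1 and Apoa4, which are near neighbours with unlike signals, and for Apob and Apoc2 as the structural protein of the large particles and the lipase cofactor. Each line holds the 250 bases before the RefSeq start of the gene, 5' to 3' on the strand of the gene, in GRCm38.p6: chr9:46228380-46228629 (plus strand) for Apoa1, chr9:46240594-46240843 (plus strand) for Apoa4, chr12:7977427-7977676 (plus strand) for Apob and chr7:19677942-19678191 (minus strand) for Apoc2. Capitals mark matches, on either strand, to any of 5 short strings that were searched after the sequences had been read.
Apoa1: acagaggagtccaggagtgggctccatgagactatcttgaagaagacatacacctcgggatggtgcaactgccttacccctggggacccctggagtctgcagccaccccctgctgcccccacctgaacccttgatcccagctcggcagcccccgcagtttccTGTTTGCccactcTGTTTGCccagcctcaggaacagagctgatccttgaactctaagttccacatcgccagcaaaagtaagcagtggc
Apoa4: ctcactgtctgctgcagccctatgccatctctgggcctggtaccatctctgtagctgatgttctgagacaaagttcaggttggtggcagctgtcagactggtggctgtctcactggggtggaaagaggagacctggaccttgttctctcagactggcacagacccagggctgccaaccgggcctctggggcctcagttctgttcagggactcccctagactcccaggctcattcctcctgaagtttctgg
Apob: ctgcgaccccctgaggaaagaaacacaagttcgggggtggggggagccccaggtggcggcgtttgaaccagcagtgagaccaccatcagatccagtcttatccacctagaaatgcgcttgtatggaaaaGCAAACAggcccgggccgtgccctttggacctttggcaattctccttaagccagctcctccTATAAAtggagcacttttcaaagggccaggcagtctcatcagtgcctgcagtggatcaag
Apoc2: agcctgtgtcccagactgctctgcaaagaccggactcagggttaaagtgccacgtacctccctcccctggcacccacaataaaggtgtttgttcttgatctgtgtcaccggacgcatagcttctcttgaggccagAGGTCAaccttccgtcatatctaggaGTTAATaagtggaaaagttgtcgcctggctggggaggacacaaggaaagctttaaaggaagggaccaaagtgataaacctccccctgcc

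The strings were the TATA box TATAAA, the forkhead string TGTTTNC, to which FOXA factors of the liver can bind, the nuclear receptor half-site AGGTCA, the HNF4 core CAAAGTCCA and the HNF1 half-site GTTAAT. RefSeq windows were listed for 8 of the 10 genes, in 11 windows, and for Apoc1 and Apoc3 none was listed in the table. The forkhead string was found in 5 of the 11 windows, 1 each of Apoa1, Apoa2, Apob, Apoh and Apom, and in 17.8% of all 32851 windows. In Apoa1 it occurred at 88 and again at 75 bases before the start. TATAAA was found in 3 of the 11 windows (Apoa2, Apob and Apoe), against 12.4% of all windows, and AGGTCA in 3 of the 11 (Apoa2, Apoc2 and Apoh), against 14.0%. GTTAAT was found in 2 of the 11 windows (Apoc2 and Apoe), against 6.43% of all windows, and CAAAGTCCA in 0 of the 11, against 0.384%. The window of Apoa4 held none of the 5 strings in exact form, though it holds caaagttca, which differs from the HNF4 core in 1 letter. Near matches were not searched. A match describes the letters and not a bound factor, and binding was not measured.

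Among the HDL proteins, Apoa1, which activates the enzyme that esterifies cholesterol on HDL, had high signals in all of its 4 probe sets. Probe set 1455201_x_at of Apoa1 read 2661.9 on array 1 and 2463 on array 2. Probe set 1438840_x_at of Apoa1 read 2307.1 and 2270.4, and 1419233_x_at read 2236.2 and 2076. Probe set 1419232_a_at of Apoa1, the member of the group whose name carries no warning of shared sequence (an _x_at or _s_at ending), read 2034.6 and 2035.4. All 4 thus lay at least 60.2 times above the bound of their array and above 99.06% to 99.43% of the probe sets of the array.

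Apoa2, the second protein of HDL, was measured by 1 probe set, which read 1617.3 on array 1 and 1588.9 on array 2, above 98.6% and 98.7% of the probe sets of the arrays. Apom, a lipocalin that carries sphingosine 1-phosphate on HDL, was measured by a pair of probe sets that gave like signals. Probe set 1419095_a_at of Apom read 426 and 414.4, and 1419096_at read 349.8 and 360.6. The arrays differed by 1.03-fold in each of them.

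Apoa4, a protein of intestinal lipoproteins and HDL, lay far below the bound. Its probe set 1417761_at had signals of 1.6 and 1.8, and 1436504_x_at had 1.5 and 4.4. Both are below the median receptor signal of 6.4 on array 1 and 7.5 on array 2. A signal under the bound does not show that the transcript was absent, since the response of these probes is not known.

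Apob, the structural protein of the large particles, was above background through 1 of its 2 probe sets, and that one was weak. Probe set 1455593_at of Apob read 82.3 on array 1 and 50.9 on array 2, 2.95 and 1.51 times the bound. Probe set 1457554_at of Apob lay below the bound on both arrays, at 16.5 and 20.6. The probe sets of Apob thus disagree, and the call rests on 1455593_at alone.

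Apoe, the ligand through which remnant particles are taken up, read 816.6 on array 1 and 626.7 on array 2 in its only probe set. Apoc2, the cofactor that lipoprotein lipase needs, read 616.8 and 577.9. Apoc1, a small protein that limits the uptake of remnants, read 266.4 and 194.7. Each of these 3 genes lay at least 5.76 times above the bound on both arrays. Apoc3, which slows lipolysis and remnant uptake, had 18.7 and 24.1 in its only probe set, which is 0.67 and 0.713 times the bound.

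Apoh, a plasma protein that binds acidic phospholipids and is also known as beta-2-glycoprotein I, passed clearly in 1 of its 2 probe sets. Probe set 1416677_at of Apoh read 316.7 on array 1 and 346.8 on array 2. Probe set 1447719_at of Apoh read 41.4 and 31.6, above the bound on array 1 and below it on array 2. As with Apob, the call for Apoh rests on a single probe set.

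The duplicates agreed closely for 5 of the 8 genes above background, and Apob, Apoc1 and Apoe were lower on array 2 by more than most probe sets of like signal. For this the log2 signal of array 1 was subtracted from that of array 2 in the brightest probe set of each gene, by its mean over both arrays, and the differences were centred on the median of all 22138 probe sets above background on both arrays (0.01 before centring). With a single array on either side and no second condition, the differences have no test, and error of the signals and a difference between embryos cannot be told apart in them. The difference was -0.12 for Apoa1, -0.04 for Apoa2, -0.05 for Apom, -0.10 for Apoc2 and 0.12 for Apoh. The value for Apoa1 comes from 1455201_x_at and was -0.01 without _s_at and _x_at probe sets. The difference was -0.39 for Apoe, -0.46 for Apoc1 and -0.70 for Apob.

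As a measure of the usual spread, the central 95% of the differences was taken over the probe sets whose mean log2 signal lay within 0.5 of that of the gene. For Apoe this range ran from -0.36 to 0.26 over 1496 probe sets, for Apoc1 from -0.42 to 0.37 over 4210, and for Apob from -0.55 to 0.68 over 6271. The 3 genes lay below their ranges, and the other 5 lay inside theirs. For Apoa1, where signals are high, the range was narrower, from -0.21 to 0.15 over 446 probe sets. Apob, with 1.62-fold between its raw signals, was the 1 member gene beyond 1.5-fold, against 2.71% of all 11901 genes compared. On log2(signal + 16) without a filter, Apob was at -0.58 and 0 member genes were beyond 1.5-fold. On array 2, 7 of the 8 genes were lower, against 53.7% of all genes, though Apoa2 turned to 0.003 with quantile normalization, and the median difference of the 8 genes was -0.11, beside -0.02 over all genes. The summed signal of the 10 genes was 6824 on array 1 and 6292 on array 2.

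**Figure D2:**
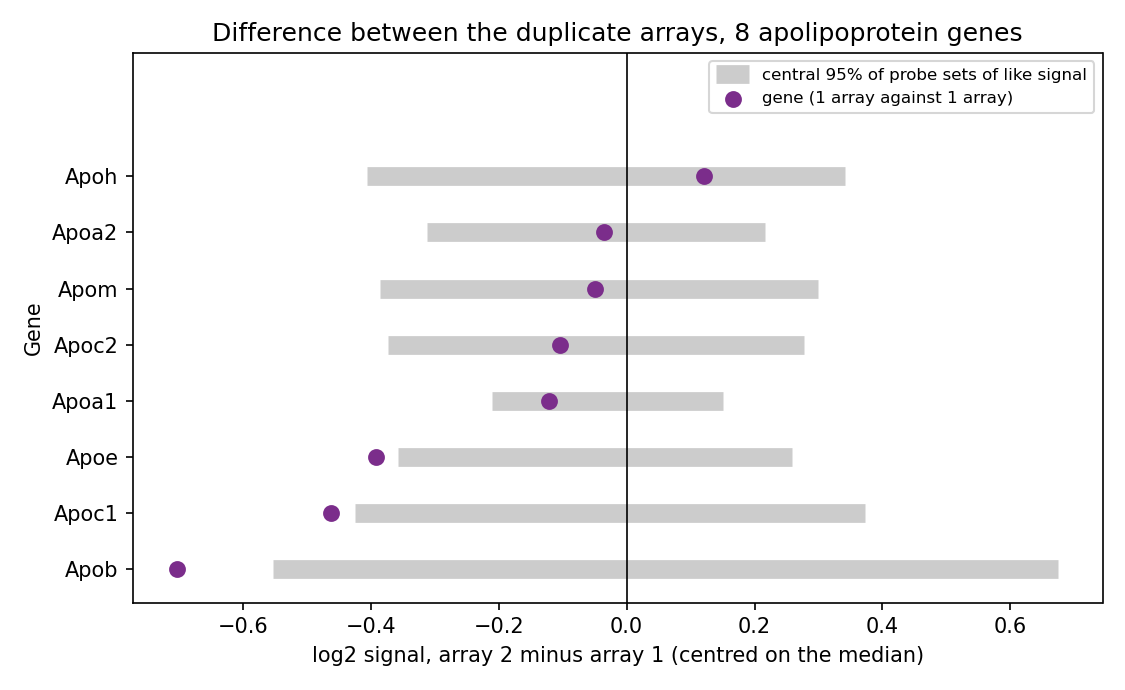
Log2 signal of array 2 minus array 1 (points) for the 8 apolipoprotein genes above background, 1 probe set a gene, with the central 95% of the same difference over probe sets of like signal as grey bars. Apoe at -0.39, Apoc1 at -0.46 and Apob at -0.70 lie to the left of their bars.

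Most of the measured hepatocyte plasma protein transcripts also had lower signals on array 2. All 11 measured hepatocyte markers, plasma proteins other than apolipoproteins, were above background, with signals from 324.6 to 3594.1, and none was at 0. In RNA of the whole embryo, other tissues may share in these signals. Alb (albumin) read 2845.9 on array 1 and 2404.5 on array 2, Afp (alpha-fetoprotein, the main plasma protein of the fetus) 3594.1 and 3529.1, Ttr (transthyretin) 3332.4 and 2985.1, and Ahsg (fetuin-A) 874.1 and 617.8. Of these 11 genes 10 were lower on array 2, with differences from -0.55 to 0.00 and a median of -0.25, and 5 lay below the range of probe sets of like signal. Their summed signal was 15824 on array 1 and 13860 on array 2, a ratio of 0.876, beside 0.922 for the apolipoproteins. The brightest probe sets weigh most in these sums, among them Apoa1 and Apoa2 for the apolipoproteins and Afp, Ttr and Alb here. In the list of hepatocyte transcription factors, given below, 5 of the 11 genes above background were lower on array 2. Whole embryo RNA does not show how much of their signal came from hepatocytes. Some were weak with a wide range, such as Foxa2, at 54.2 and 56.8 with a range from -0.54 to 0.72. The median difference of these 11 factors was 0.05, and Creb3l3 lay above its range at 0.68. In the other lists, also given below, Spink1 at -0.93 and Lrpap1, an uptake gene, at -0.56 lay below their ranges. Hes5 at 0.84 and Clu at 0.32 lay above theirs. The part of the hepatocyte signal in the lower values of Apoe, Apoc1 and Apob on array 2 was not tested. In whole embryo RNA with 1 array a side, error of the signals, fewer hepatocytes and less RNA per hepatocyte cannot be told apart.

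The other cells that can make apolipoproteins were read from their markers. All 7 macrophage markers were above background, among them Csf1r, the receptor of the growth factor that macrophages need, at 1047.7 and 1043.5, and Adgre1, the F4/80 antigen, at 193.4 and 193.9. C1qa and C1qb, complement subunits made by macrophages, read 148.2 and 161 and 448.3 and 497.6. The macrophage sum was 2564 on array 1 and 2537 on array 2, and 4 of the 7 genes were lower on array 2. All 5 markers of neural progenitors and radial glia passed as well, with Fabp7, a fatty acid binding protein of radial glia, at 564.5 and 441.5, Slc1a3, a glutamate carrier of glia, at 145 and 146.9, Nes at 288.6 and 321 and Hes5 at 61.2 and 110.4. Their sum was 1476 on array 1 and 1441 on array 2. Since all of these tissues entered the same RNA, the Apoe signal cannot be placed in one of them.

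Markers of the yolk sac and the gut were mostly not above background. Of 5 markers of yolk sac endoderm 1 passed, the trypsin inhibitor gene Spink1, at 79.2 on array 1 and 41.9 on array 2. Amn and Cubn, which together form the receptor of that epithelium for vitamin B12 and HDL proteins, read 26.5 and 29.8 and 21.2 and 36.5. Lrp2, another endocytic receptor, read 19.8 and 36.4, and Rhox5 read 28.1 and 30. Cubn and Lrp2 thus passed on array 2 only, Rhox5 on array 1 only and Amn on neither. None of 5 markers of intestinal epithelium passed: Vil1 (21.5 and 26.2), Cdx1 (0.9 and 1.1), Cdx2 (27.2 and 23.2), Fabp2 (16.2 and 18.5) and Cdh17 (15.5 and 27). The gut list had a summed signal of 81.3 and 96, beside the low signals of Apoa4. As for Apoa4, signals under the bound do not show that these transcripts were absent. The trophoblast genes Tpbpa and Psg17 lay between 0.8 and 6.3. The fetal liver also holds red cell precursors. All 5 erythroid markers passed, Hbb-y, an embryonic globin, Alas2, which starts haem synthesis, the erythroid factor gene Klf1 and the anion exchanger gene Slc4a1 among them. Their sum was 10252 on array 1 and 10437 on array 2. These signals cannot be placed in the liver, since all tissues of the embryo entered the same RNA.

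**Figure D3:**
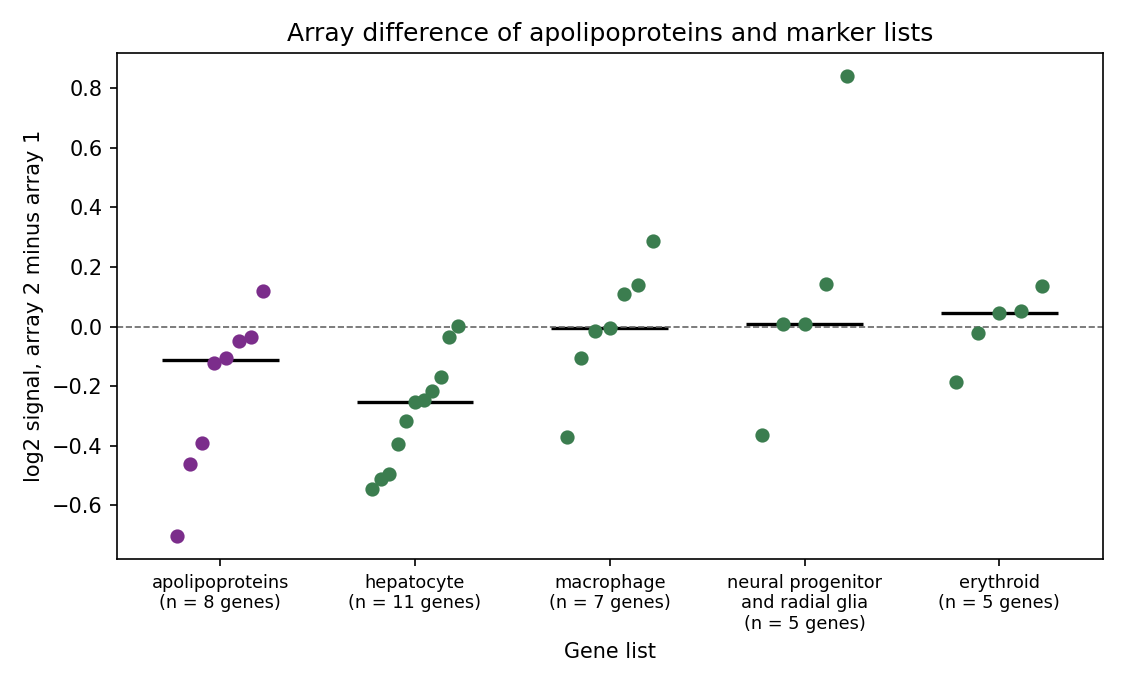
Log2 signal of array 2 minus array 1 for each gene above background (points) of the apolipoproteins and 4 marker lists, with the median of each list as a horizontal line. The medians are -0.11 for apolipoproteins, -0.25 for hepatocyte markers, -0.01 for macrophages, 0.01 for neural progenitors and radial glia and 0.04 for erythroid cells.

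Over 5 pathway lists of genes linked to apolipoproteins by name or role 39 of 55 measured genes passed, a share near the 65.5% of all genes. Of 15 measured genes for the assembly, secretion and remodelling of particles 14 passed. Mttp, which loads lipid onto Apob, read 118.2 on array 1 and 112.6 on array 2, and P4hb, its partner subunit, read 2566.3 and 2416.4. Sar1b, a GTPase needed for the export of large particles, read 702.8 and 665, and Pla2g12b, which is required for hepatic particle secretion, read 152 and 184.1. The gene that did not pass was Tm6sf2, at 11.2 and 9.9. Lpl, the lipase that Apoc2 activates, read 464.9 and 357.2, and Abca1, which loads lipid onto Apoa1, read 706.8 and 683.1.

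Of 9 measured receptors and uptake genes 7 passed. Lrp1, a remnant receptor that binds Apoe, read 507 and 438.7, Vldlr read 198.8 and 223.1, Lrp8, a receptor of Apoe in the nervous system, read 63.8 and 68.8, and Scarb1, the HDL receptor, read 298.1 and 376. The 2 that did not pass were Lrp2 and Cubn, the endocytic receptors named above with the yolk sac. Of the hepatocyte transcription factors 11 of 15 passed, with Hnf4a, a nuclear receptor that acts on many apolipoprotein genes, at 211.2 and 200.6, Foxa1 at 67.4 and 61.8, Foxa2 at 54.2 and 56.8 and Foxa3 at 58 and 71.4. Nr1h4, the bile acid receptor (14.1 and 27.3), Ppara, the fatty acid receptor (30.7 and 9.3), Onecut1 (10.8 and 12) and Prox1 (20.9 and 19.6) did not pass on both arrays.

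Of 14 further genes, listed for an apolipoprotein name or a link to HDL, 6 passed. The name alone does not make each of them a lipoprotein component. They were Apoc4 (185.2 and 191.9), Apod (129.3 and 122), which is made mostly outside the liver, Apof (126.9 and 116.5), Apoo (322.6 and 339.5), Apool (142.8 and 151.7) and Clu, also called apolipoprotein J (412.7 and 518.8). Apoa5, the neighbour of Apoa4 and an activator of lipolysis, passed on array 1 alone, at 31.4 and 14.1. The genes for editing of Apob RNA were divided, with A1cf, the RNA-binding subunit, above the bound at 52.2 and 38.6 and Apobec1, the deaminase, below it at 6.3 and 21.4.

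**Figure D4:**
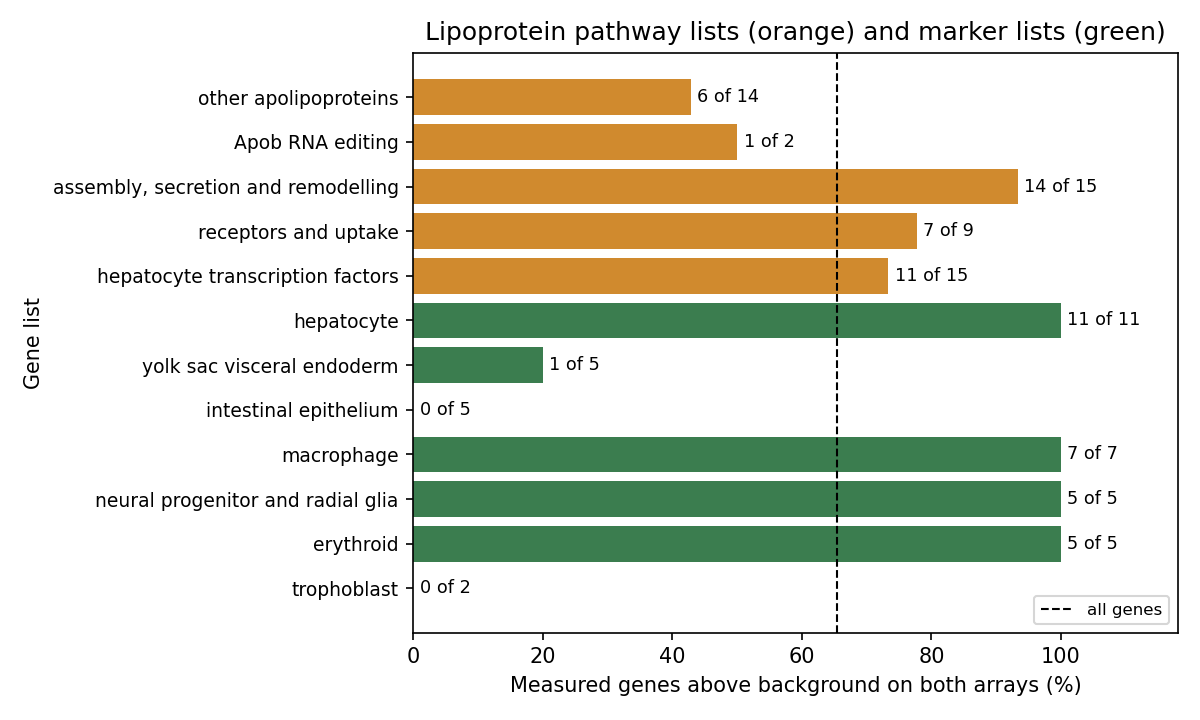
Percent of each list's measured genes that passed the bound on array 1 and on array 2, with counts at the bars and the value for all genes (65.5%) as a dashed line. Hepatocyte, macrophage, neural progenitor and erythroid markers passed in full, and intestinal epithelium and trophoblast markers had 0 of 5 and 0 of 2.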

How the data were processed

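Total RNA of wild type whole embryos at E14.5 was measured on 2 Affymetrix mouse genome arrays. The deposited signal intensity values are linear and were made by the authors with GCOS 1.3, a tool that the submitters' processing notes name. Each array has a mean of 100 after trimming of 2% at each end. The detection calls of the study were not used here, so a bound took their place. Medians were 32 on array 1 and 35.3 on array 2; the number of arrays limits the precision.

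Gene names came from the platform annotation. For 34754 of 34958 probe sets with 1 symbol the name was brought up to date by gene identifier with RefSeq (GRCm38.p6). Probe sets with several symbols (932) or none listed (9211) named no gene. A gene is shown by its probe set with the highest mean. The text names all 10 members with every probe set, the first 4 measured genes of each list and the exceptions where they were 5 or fewer. Lpl, Abca1, Apoo, Apool, Clu, Creb3l3 and Lrpap1 were added after their values were seen. Members and lists were chosen with earlier results of these data known. Of 61 genes named in the pathway lists 55 were measured, and of 45 in the marker lists 40; the others were not analysed here. Promoter windows are from RefSeq.

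There is 1 condition, so no p-value was computed. As alternatives the bound was moved to the 90th and 99th percentile and to the array median, each array was taken alone, and _s_at and _x_at probe sets were removed. Differences were also taken without centring, after quantile normalization, after loess (span 0.3), unfiltered on log2(signal + 16), and as the mean over all probe sets of a gene. The steps were tested on simulated arrays. Scripts ran in Python 3.11.15 (numpy 2.4.6, pandas 2.3.3, statsmodels 0.14.6, scipy 1.17.1, matplotlib 3.10.9).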

Additional observations from a re-analysis of the deposited data

How the results depend on the processing

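The calls of the 10 genes against the background bound did not change under any of 6 alternatives (60 of 60 calls). Many of these calls could not change. A gene above the bound on both arrays also passes a lower bound or either array alone. A gene that fails stays out under a higher bound. Removal of _s_at and _x_at probe sets touched only Apoa1 and Apoa4. Apoa4 and Apoc3 stayed below the bound with the 90th percentile, where the bounds fell to 22.4 and 28.8, and with array 1 or array 2 alone. The number of the genes' probe sets above background ranged from 9 without _s_at and _x_at probe sets, which leaves fewer to count, to 13 with the 90th percentile bound or array 1 alone; it was 12 with array 2 alone. List counts stayed within 1.5 times their value in 68 of 72 cases. The exceptions were yolk sac endoderm, with 3 genes at the 90th percentile bound, 3 with array 2 alone and 2 with array 1 alone, and Apob RNA editing, with 0 at the 99th. The count of member genes beyond 1.5-fold fell to 0 without a filter and with a pseudocount of 16, which pulls Apob to -0.58, and was 1 under the other 5 alternatives. The median difference of the members lay between -0.10 and -0.07. Of 48 differences of single genes 1 changed sign: Apoa2, at 0.003 with quantile normalization. Without _x_at probe sets Apoa1 moved to -0.01. No paired analysis was possible because both arrays belong to 1 group.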
